A study of Mus musculus with 4 samples.

Results

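The 37 genes described here are 6 stress regulators, 6 amino acid synthesis enzymes, 6 amino acid transporters and 19 subunits of cytoplasmic tRNA synthetases, out of 12612 genes named in 4 RNA-seq libraries of C2C12 cells. They were chosen by gene name as the genes of the response to amino acid shortage and of tRNA charging, and all 37 were assembled in all 4 libraries. C2C12 cells are an immortal line of mouse muscle precursors, which leave the cell cycle, switch on muscle genes and fuse into multinucleate myotubes when serum is withdrawn. Growth was sampled at -24 h, while the cells divided exponentially in 20% fetal bovine serum, and the other libraries were taken 60 h, 120 h and 168 h after the medium of confluent plates was changed to one low in serum. Each time point is 1 library of polyadenylated RNA from 1 immortal line, with no replicate and no plate kept confluent in high serum, so time in low serum, confluence and the end of division cannot be told apart.

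Cells that lack an amino acid, or whose endoplasmic reticulum, haem or viral sensors are triggered, phosphorylate the translation factor eIF2. General translation slows, while the mRNA of the transcription factor ATF4 is translated more. ATF4, often paired with C/EBP proteins, then switches on genes that import amino acids, make asparagine, serine and glycine, and charge tRNAs, together with further regulators such as CHOP (the product of Ddit3), ATF3 and TRIB3. Because ATF4 is controlled largely at translation, its mRNA is a poor measure of its protein. Aminoacyl-tRNA synthetases attach each amino acid to its tRNA, and they are needed in every cell that makes protein.

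The response element through which ATF4 acts with C/EBP partners has the core TGATGNAA, and this core was sought on both strands in RefSeq promoters, which run from 250 bases before to 50 bases after the annotated start. Promoters were found for 29 of the 37 genes, and no entry was matched for Slc7a5, Slc1a5, Cars, Hars, Lars, Nars, Rars or Wars. The core occurred in 11 of the 29 (37.9%), against 1304 of all 32851 promoters (3.97%). It lay in the promoters of Atf3, Trib3, Chac1, Asns, Slc7a11, Slc1a4, Aars, Gars, Iars, Tars and Yars, and Aars and Slc7a11 held 2 copies each. By role it was found in 3 of 6 stress regulators, 1 of 6 synthesis enzymes, 2 of 4 transporters and 5 of 13 tRNA synthetases. A match describes these letters and shows no binding, and a promoter without one was searched over 300 bases only. The promoters below are those of the pseudokinase gene Trib3, the glutathione-degrading enzyme gene Chac1, asparagine synthetase (Asns) and the alanine and glycine tRNA synthetases (Aars and Gars), with Farsa, the phenylalanine synthetase alpha subunit, as a member without a match. They are printed 5′ to 3′ along the gene from the GRCm38.p6 build, Trib3 at chr2:152344011-152344310, minus strand, Chac1 at chr2:119350992-119351291, plus strand, Asns at chr6:7693160-7693459, minus strand, Aars at chr8:111033592-111033891, plus strand, Gars at chr6:55037751-55038050, plus strand and Farsa at chr8:84856736-84857035, plus strand. Capitals mark the core, which reads TTNCATCA where it lies on the opposite strand.
Trib3: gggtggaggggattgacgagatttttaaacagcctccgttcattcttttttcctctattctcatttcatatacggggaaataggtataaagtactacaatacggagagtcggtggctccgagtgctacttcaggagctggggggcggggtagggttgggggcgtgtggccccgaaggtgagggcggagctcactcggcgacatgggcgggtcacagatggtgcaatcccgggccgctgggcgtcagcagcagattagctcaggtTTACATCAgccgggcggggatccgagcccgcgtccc
Chac1: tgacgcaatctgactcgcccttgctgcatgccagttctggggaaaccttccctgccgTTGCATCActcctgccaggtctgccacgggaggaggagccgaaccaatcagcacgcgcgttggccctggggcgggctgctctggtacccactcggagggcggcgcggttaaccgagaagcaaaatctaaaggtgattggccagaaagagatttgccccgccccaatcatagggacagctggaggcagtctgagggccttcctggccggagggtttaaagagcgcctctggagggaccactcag
Asns: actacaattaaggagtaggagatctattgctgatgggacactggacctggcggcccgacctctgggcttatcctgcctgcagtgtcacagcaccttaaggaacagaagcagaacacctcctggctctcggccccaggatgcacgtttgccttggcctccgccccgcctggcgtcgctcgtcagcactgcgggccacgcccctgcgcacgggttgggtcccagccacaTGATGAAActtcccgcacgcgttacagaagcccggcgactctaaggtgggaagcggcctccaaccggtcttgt
Aars: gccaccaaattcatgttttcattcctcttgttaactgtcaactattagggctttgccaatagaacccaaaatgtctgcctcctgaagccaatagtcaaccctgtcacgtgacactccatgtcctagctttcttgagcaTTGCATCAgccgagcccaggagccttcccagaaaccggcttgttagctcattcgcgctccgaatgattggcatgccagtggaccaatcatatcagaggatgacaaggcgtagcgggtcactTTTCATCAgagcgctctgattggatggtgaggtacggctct
Gars: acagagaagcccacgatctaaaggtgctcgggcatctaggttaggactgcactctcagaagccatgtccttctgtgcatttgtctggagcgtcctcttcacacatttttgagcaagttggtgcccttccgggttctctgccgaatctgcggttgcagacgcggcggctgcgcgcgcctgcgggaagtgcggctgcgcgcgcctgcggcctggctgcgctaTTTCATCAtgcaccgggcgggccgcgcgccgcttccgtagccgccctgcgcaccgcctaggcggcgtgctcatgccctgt
Farsa: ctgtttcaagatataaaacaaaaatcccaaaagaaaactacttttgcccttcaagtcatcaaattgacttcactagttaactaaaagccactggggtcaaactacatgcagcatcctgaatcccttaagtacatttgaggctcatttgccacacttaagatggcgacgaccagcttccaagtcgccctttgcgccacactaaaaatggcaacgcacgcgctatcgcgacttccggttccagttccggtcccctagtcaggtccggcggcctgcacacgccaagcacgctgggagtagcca
The core began 23 bases before the start in Asns, 30 bases before it in Gars and 193 bases before it in Chac1, and 14 bases after it in Trib3. In Aars 1 copy began 112 bases before the start and the other 9 bases after it.

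Levels below are FPKM, fragments per kilobase of transcript relative to the size of the library, summed over the assembled transcripts of a gene. The sign ± gives the distance to the deposited confidence limit, which reflects the fragments counted and not variation between cultures. The words rose and fell are kept for genes that met a size rule, which asked for a change of 2-fold or more in FPKM + 1, for 1 FPKM or more in the higher library and for confidence intervals apart from each other. Ratios are given on the log2(FPKM + 1) scale, where changes of low genes look smaller than they are. Folds printed for single genes are ratios of FPKM without the added 1, so they differ somewhat from the log2 ratios beside them. With 1 library per time no p-value can be given. A second measure, the FPKM through the introns, takes for each intron the summed FPKM of the transcripts that splice it, and then the median of those introns. It is given for members where it changes a call and for some others, and smaller differences between the measures are not all printed. It was added because a sum of FPKM counts a gene more than once when its assembly is broken into pieces. In RNA pooled from a dish, a smaller share of cells of a kind and less of a transcript in each cell cannot be told apart.

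The 4 libraries held between 24488681 fragments (120 h) and 48228887 fragments (60 h). The least covered member had 80 fragments in growth (Atf3) and 1022, 52 and 242 fragments at 60 h, 120 h and 168 h (Slc7a11 each time), and the median distance to the limit among members was 2.31% to 3.67% of a value. Of 7 myoblast and myotube markers 5 rose at 60 h against growth. Myog, which encodes the muscle transcription factor myogenin, had 16.9, 399, 489 and 326 FPKM in growth, then at 60 h, 120 h and 168 h, and Myod1, a factor that myoblasts already express, had 193, 215, 134 and 86.1 FPKM. In the same order 4 markers of dividing cells summed to 294, 95.2, 37.4 and 16.6 FPKM. Of 5 macrophage and endothelial markers 3 had a named transcript, with sums of 1.14 to 5.05 FPKM, while Adgre1 and Pecam1 had none. Of 3 adipocyte markers Fabp4 alone had one, at most 0.750 FPKM, and Adipoq and Plin1 had none. The part of other cell types and of the loss of dividing cells in the values below was not tested. Over all genes the median log2 ratio was -0.186 at 60 h against growth, 0.154 at 120 h against 60 h, -0.115 at 168 h against 120 h and -0.111 at 168 h against growth. Among the 10626 genes assembled in all 4 libraries the median at 60 h against growth was -0.240. Rescaling the libraries by the median ratio of genes moved it to -0.0315, so ratios within about 0.2 of 0 can change sign with the scaling.

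After 60 h in low serum 5 of the 6 regulators, the synthesis enzymes Asns and Psph and 5 of the 6 transporters had risen above growth, while 16 of the 19 tRNA synthetases differed from growth by less than 2-fold. Of the 37 members 15 rose and 0 fell at 60 h against growth, whereas 11.1% of 12326 genes rose and 15.4% fell. By both measures 14 rose and 0 fell, against 8.41% and 9.15% of genes. The median log2 ratio of the members was 0.84, beside -0.186 for all genes. Intervals were apart for all 37 members. The 60 h value was the higher one in 32 members, where 27.2% of all genes were higher with intervals apart, and the lower one in 5, where 41.9% of all genes were lower.

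**Figure D1:**
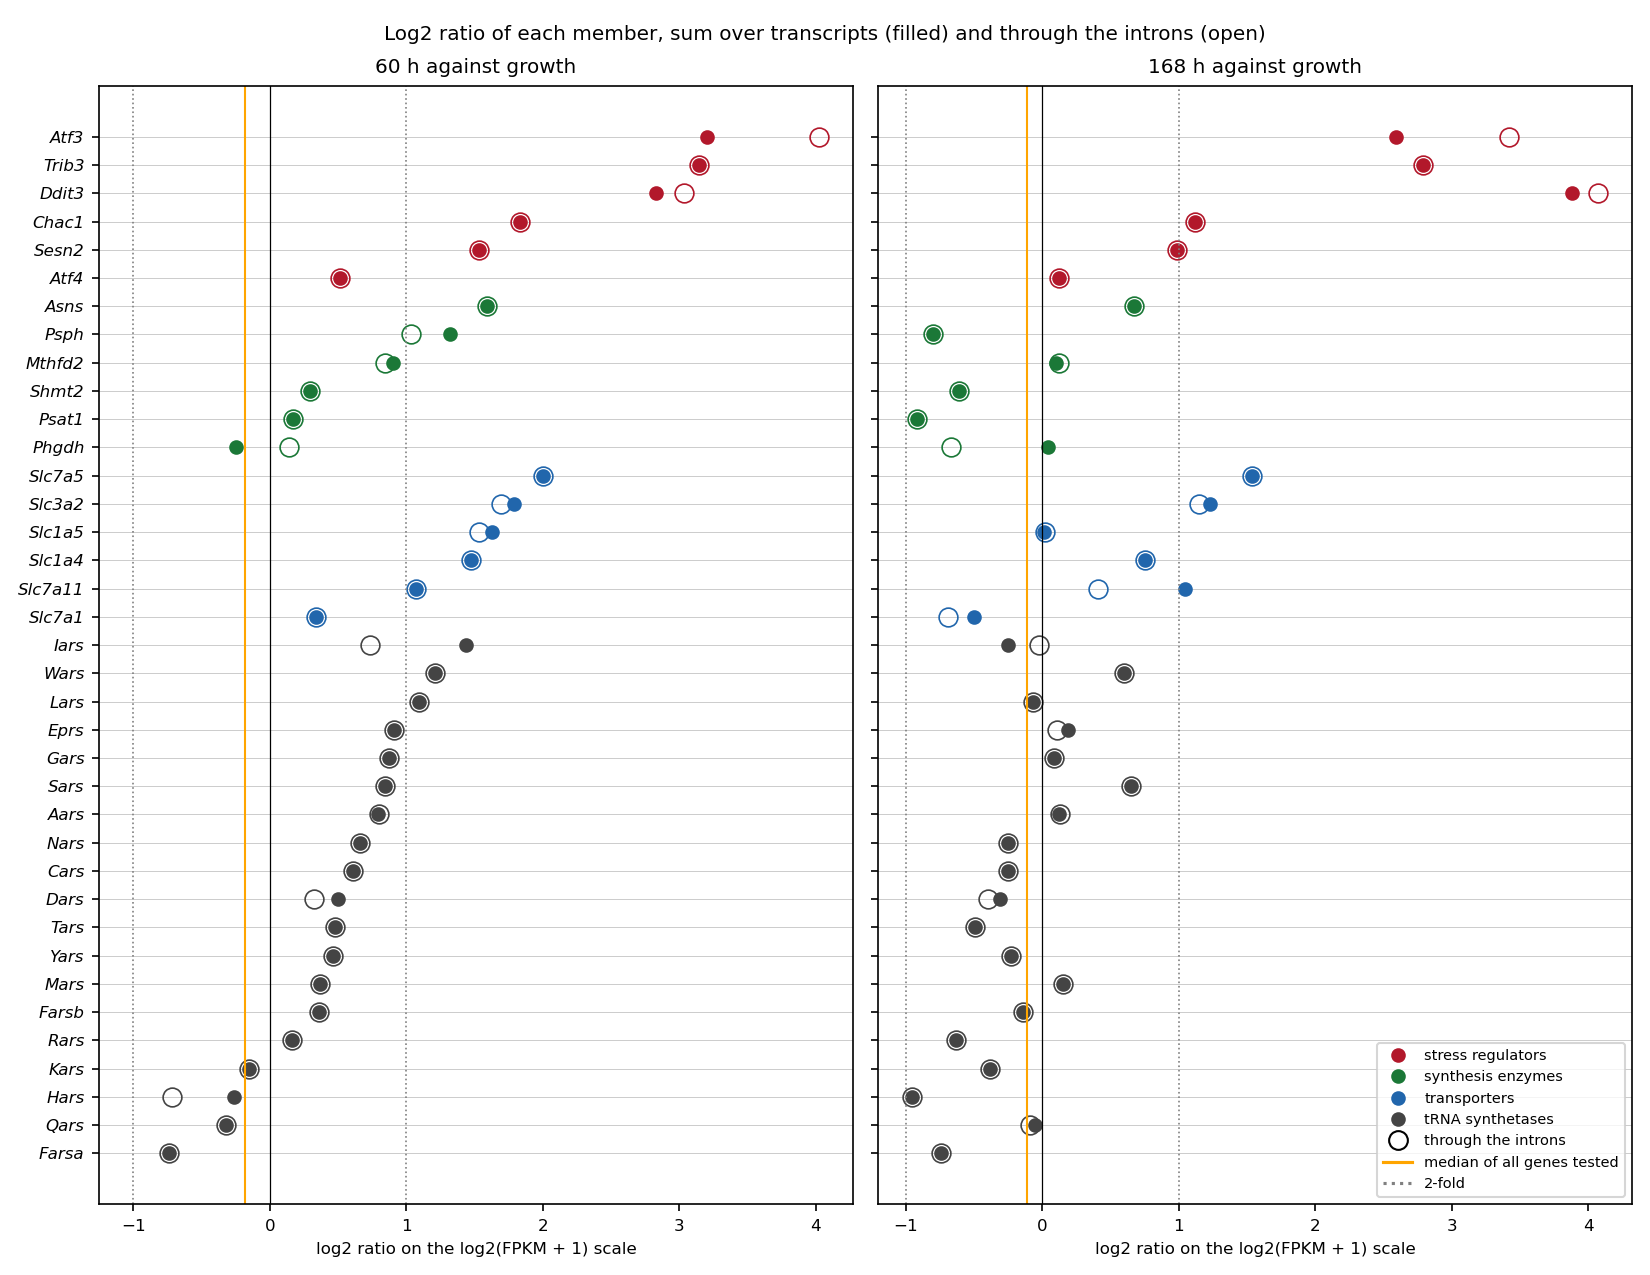
Log2 ratio of each of the 37 members at 60 h against growth (left) and 168 h against growth (right) on the log2(FPKM + 1) scale, summed over transcripts (filled points) and through the introns (open points), with the median of all genes as an orange line and 2-fold as dotted lines. At 60 h 5 of 6 regulators and 5 of 6 transporters lie beyond 2-fold, and at 168 h no tRNA synthetase does.

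The stress regulators moved most. Of the 6 genes 5 rose at 60 h against growth and 0 fell, beside 11.1% and 15.4% of all genes, with a median log2 ratio of 2.33. Trib3 (chromosome 2, 152162988 to 152169875), which encodes a pseudokinase that ATF4 induces and that restrains it in turn, had 21.1 ± 1.20 FPKM in growth, 194 ± 2.68 at 60 h, 157 ± 3.45 at 120 h and 152 ± 2.55 at 168 h. All 3 libraries in low serum lay far above growth, with a log2 ratio of 3.14 (9.18-fold) at 60 h against growth and 2.79 (7.22-fold) at 168 h against growth. Atf3 (chromosome 1, 192994174 to 193007127), a stress-induced transcription factor of the ATF family, had 3.64 ± 1.84 FPKM in growth, 41.5 ± 1.35 at 60 h, 32.4 ± 1.68 at 120 h and 27.0 ± 1.14 at 168 h. Its log2 ratio at 60 h against growth was 3.20, and 4.02 through the introns, since 2.02 FPKM of the growth value belonged to a separate piece of 87 bases. Atf3 was the member with the fewest fragments in growth, yet the low serum libraries stood apart from it by either measure.

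Chac1 (chromosome 2, 119176897 to 119180181), which encodes an enzyme that breaks down glutathione, had 45.4 ± 1.98 FPKM in growth, 164 ± 2.83 at 60 h, 131 ± 3.68 at 120 h and 99.5 ± 2.32 at 168 h. It rose 3.60-fold at 60 h against growth and was still 2.19-fold higher at 168 h than in growth. Sesn2 (chromosome 4, 132047842 to 132066400), whose product senses leucine and holds back the growth kinase mTORC1, had 15.0 ± 0.769 FPKM in growth, 45.2 ± 1.04 at 60 h, 33.5 ± 1.26 at 120 h and 30.8 ± 0.902 at 168 h. It rose 3.01-fold at 60 h against growth. At 168 h against growth its log2 ratio of 0.99 missed the threshold, and it passed at 1.03 with a pseudocount of 0.1 FPKM and at 1.18 after rescaling.

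Atf4 itself (chromosome 15, 80085730 to 80088252) was the highest of the regulators in all 4 libraries and changed least against growth. It had 442 ± 6.45 FPKM in growth, 629 ± 5.25 at 60 h, 642 ± 8.59 at 120 h and 481 ± 5.53 at 168 h. The intervals at 60 h and growth did not overlap, but the log2 ratio of 0.51 (1.42-fold) was below the 2-fold threshold. By the sum the 60 h and 120 h intervals overlapped. The assembled transcript was 1890 bases long at 60 h, against 1492 in growth, 1422 at 120 h and 1434 at 168 h. A further measure, called the union of exons here, takes the fragments of the transcripts assembled in each library, scaled to library size. For ratios they were divided by the length of the union of exons, the same in all libraries. Bases that a library did not assemble add nothing, so this measure depends on the assembled length. By it Atf4 had 659.9, 1189, 912.5 and 689.8 scaled fragments in time order. The log2 ratio was then 0.85 at 60 h against growth, still below the threshold, and -0.38 at 120 h against 60 h. The part of the longer assembly at 60 h in these ratios was not tested.

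Ddit3 (chromosome 10, 126727723 to 126734078), the gene of the transcription factor CHOP, differed from the other regulators in having its highest level at 168 h. It had 11.4 ± 1.77 FPKM in growth, 87.2 ± 3.03 at 60 h, 74.8 ± 4.03 at 120 h and 181 ± 5.55 at 168 h. The log2 ratio was 2.83 (7.67-fold) at 60 h against growth and 3.88 (15.9-fold) at 168 h against growth. At 168 h against 120 h it rose by 1.26 on the log2 scale, but the assembled transcript was 1017 bases long at 168 h, against 1581 bases at 120 h and 1584 at 60 h, because those ran farther downstream. Mars, the methionine tRNA synthetase gene, lies end to end with Ddit3 on the opposite strand and shares 68 bases of annotated exon with it. The assembled spans overlapped farther. Mars transcripts reached down to 126732261, 126731707, 126732762 and 126731691 in time order, each inside the span of Ddit3. The protocol describes no marking of strand, so fragments from exons of both genes there cannot be told apart. What they add to the level of either gene was not tested. By the union of exons Ddit3 had 13.1, 138, 118 and 184 scaled fragments in time order. The ratio at 168 h against 120 h was then 0.63, which did not pass, while 168 h was the highest library by both counts. The union measure counts no fragments outside the 1017 bases assembled at 168 h. Whether Ddit3 passed the rule in this step therefore stays unsettled.

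**Figure D2:**
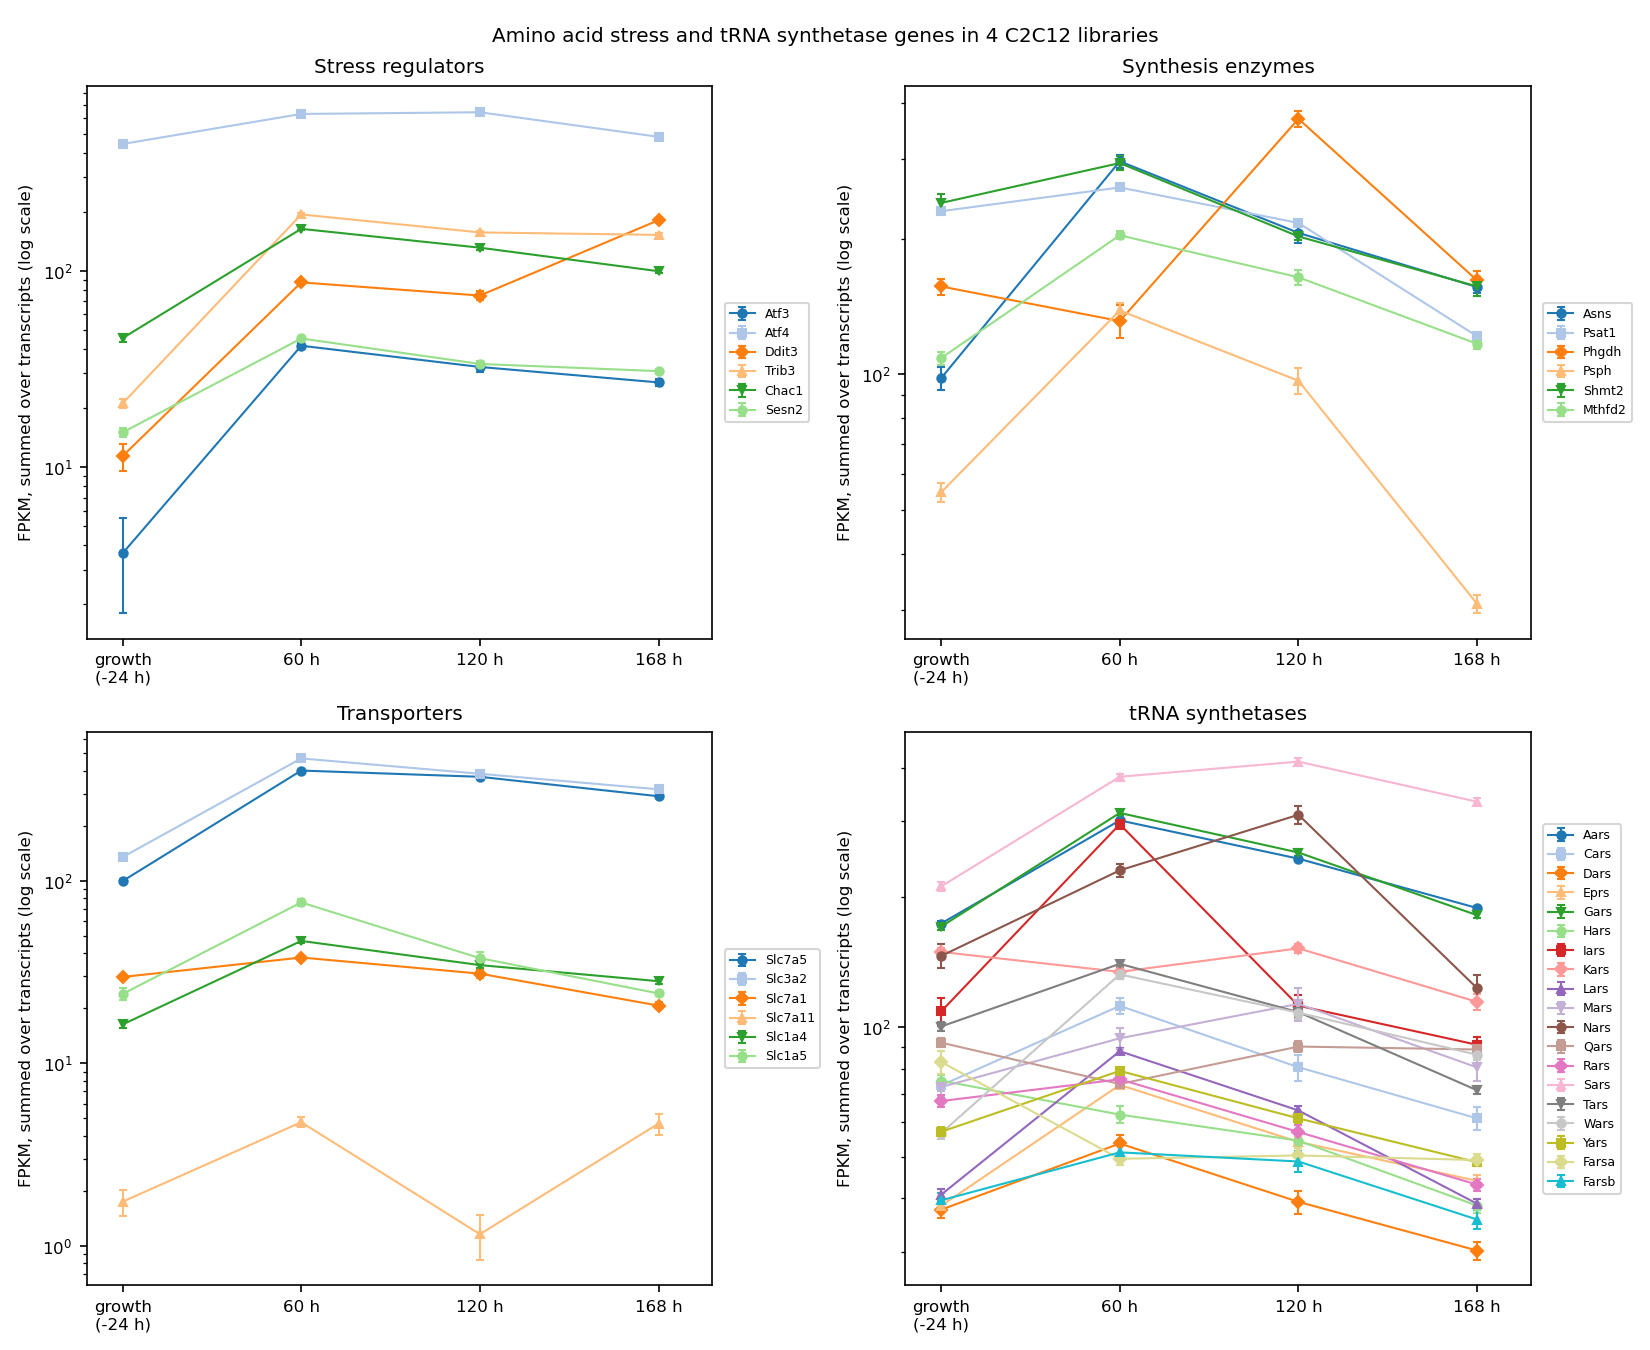
FPKM of every member (log scale, summed over transcripts, bars to the confidence limits) in growth (-24 h) and at 60 h, 120 h and 168 h, 1 library each, in 4 panels by role. Most lines peak at 60 h and decline after it, with Ddit3 highest at 168 h, Phgdh and Nars highest at 120 h, and Farsa highest in growth.

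Of the 6 synthesis enzymes Asns and Psph rose at 60 h against growth and 0 fell, with a median log2 ratio of 0.60. Of all genes 11.1% rose and 15.4% fell, and with 6 genes a count of 2 or fewer says little beside those shares. Asns (chromosome 6, 7625026 to 7643281), which makes asparagine from aspartate and glutamine, had 98.1 ± 5.72 FPKM in growth, 297 ± 9.29 at 60 h, 206 ± 10.6 at 120 h and 156 ± 4.54 at 168 h. It rose 3.03-fold at 60 h against growth, and at 168 h was 1.59-fold higher than in growth, below the threshold. Psph (chromosome 5, 130271430 to 130293652), the phosphatase of the last step of serine synthesis, had 54.7 ± 2.66 FPKM in growth, 139 ± 5.41 at 60 h, 96.8 ± 6.39 at 120 h and 31.0 ± 1.47 at 168 h. It rose 2.53-fold at 60 h against growth, then fell by 1.61 on the log2 scale at 168 h against 120 h and ended below its growth level, at a log2 ratio of -0.80. The log2 ratio at 60 h against growth was 1.32 by the sum and 1.03 through the introns. Over the union of exons it was 0.93 and missed the threshold, which left Asns as the 1 enzyme of the 6 that rose by that measure. Of the sampled words of the transcript 24.3% also occur in Cct6a, a chaperonin gene that overlaps it.

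Psph also changed in form. In growth and at 168 h every assembled transcript ran over 8 exons from the distant first exon. At 60 h and 120 h a second form of 6 exons began downstream. Of the FPKM at the splice site that the forms share, it held 62.7 ± 1.7% at 60 h and 52.4 ± 3.2% at 120 h, while neither growth nor 168 h had an assembled copy of it. The full form alone had 54.7 FPKM in growth, 51.7 at 60 h, 46.1 at 120 h and 31.0 at 168 h, so as assembled the excess at 60 h lay in the shorter form. Where the shorter form was not assembled, any fragments of it would be counted to the full form. The values therefore do not show that the full form was unchanged, and the part of Cct6a was not tested.

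Mthfd2, Psat1 and Shmt2 kept within 2-fold of growth at every later time. Mthfd2, the mitochondrial folate dehydrogenase that proliferating cells use, had 109, 204, 164 and 117 FPKM in growth, then at 60 h, 120 h and 168 h. Its log2 ratio at 60 h against growth was 0.90, and it passed at 1.13 after rescaling. Psat1, the transaminase of serine synthesis, had 230.1, 260, 217 and 122 FPKM in the same order. Shmt2, which splits serine to glycine in mitochondria, had 240.0, 294, 202 and 157 FPKM. Both were highest at 60 h and lowest at 168 h, with log2 ratios of -0.92 (Psat1) and -0.61 (Shmt2) at 168 h against growth that did not reach 2-fold.

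Phgdh (chromosome 3, 98117091 to 98143888), the dehydrogenase that opens the serine pathway, could not be measured well. It had 157 ± 6.45 FPKM in growth, 131 ± 10.9 at 60 h, 369 ± 14.8 at 120 h and 162 ± 7.56 at 168 h by the sum, and 46.8, 51.7, 108 and 29.1 FPKM through the introns. The assembly was in 4 to 6 pieces in each library, 3 of its introns could be used out of 11 annotated, and 62.7% of sampled words also occur in other genes, chiefly pseudogenes such as Gm7901. By the size rule it rose at 120 h against 60 h, with a log2 ratio of 1.48, and fell by 1.19 at 168 h against 120 h. Over the union of exons these ratios were 0.38 and -0.89 and neither passed. The value at 120 h was the highest by each of these measures.

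Of the 6 transporters 5 rose at 60 h against growth and 0 fell, beside 11.1% and 15.4% of all genes, with a median log2 ratio of 1.55. Slc7a5 and Slc3a2 encode the light and heavy chains of the exchanger that imports large neutral amino acids such as leucine. Slc7a5 (chromosome 8, 124405063 to 124431585) had 99.6 ± 2.72 FPKM in growth, 402 ± 4.65 at 60 h, 372 ± 4.25 at 120 h and 291 ± 2.76 at 168 h. Slc3a2 (chromosome 19, 8781970 to 8797843) had 135 ± 4.50 FPKM in growth, 469 ± 4.79 at 60 h, 386 ± 8.62 at 120 h and 318 ± 5.95 at 168 h. Both chains were high in all 3 low serum libraries and low in growth. Slc7a5 rose 4.04-fold and Slc3a2 3.48-fold at 60 h against growth, and at 168 h they were 2.92-fold and 2.35-fold higher than in growth.

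Slc1a4 and Slc1a5 encode carriers of small neutral amino acids, and the product of Slc1a5 also carries glutamine. Slc1a4 (chromosome 11, 20202190 to 20232744) had 16.3 ± 0.763 FPKM in growth, 46.8 ± 0.992 at 60 h, 34.5 ± 1.20 at 120 h and 28.2 ± 0.812 at 168 h. Slc1a5 (chromosome 7, 17366685 to 17383823) had 24.0 ± 1.88 FPKM in growth, 76.1 ± 3.46 at 60 h, 37.7 ± 3.15 at 120 h and 24.1 ± 0.909 at 168 h. At 60 h against growth Slc1a4 rose 2.87-fold and Slc1a5 3.18-fold. At 168 h Slc1a5 was back at its growth level, with intervals that overlapped. A form of Slc1a5 with a downstream first exon held 22.4 ± 2.7% of the FPKM at the shared splice site at 60 h and 36.9 ± 4.6% at 120 h, while neither growth nor 168 h had an assembled copy of it.

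Slc7a11 (chromosome 3, 50173595 to 50247537), which imports cystine in exchange for glutamate, was the lowest member. It had 1.74 ± 0.289 FPKM in growth, 4.75 ± 0.297 at 60 h, 1.15 ± 0.320 at 120 h and 4.66 ± 0.615 at 168 h. It rose at 60 h against growth, with a log2 ratio of 1.07, and fell by 1.42 at 120 h against 60 h. The value at 168 h was summed over 3 pieces and was 2.63 FPKM through the introns, so the rise by 1.39 at 168 h against 120 h and the rise by 1.05 at 168 h against growth each held by the sum only. Over the union of exons it had 5.09, 21.2, 2.12 and 5.52 scaled fragments in time order, and 60 h alone stood high. The transcript assembled at 60 h was also the longer one, with 4465 bases, against 2924 in growth and 1840 at 120 h. Slc7a1, the carrier of arginine and lysine, had 29.7, 38.0, 31.0 and 20.7 FPKM in growth, then at 60 h, 120 h and 168 h, and passed the rule in no comparison. Through the introns it had 25.4 FPKM at 120 h and 18.0 at 168 h, so 120 h lay below growth by that measure only.

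The tRNA synthetases were expressed at 30.3 to 413 FPKM in every library. At 60 h against growth 3 of 19 rose and 0 fell, with a median log2 ratio of 0.50, and by both measures 2 rose. Those counts lie near the 11.1% of all genes that rose, and 8.41% by both measures. Lars, the leucine enzyme, had 40.8 ± 1.21 FPKM in growth, 87.8 ± 1.37 at 60 h, 64.0 ± 1.65 at 120 h and 38.9 ± 0.954 at 168 h. Wars, the tryptophan enzyme (chromosome 12, 110098240 to 110132353), had 56.7 ± 1.69 FPKM in growth, 132 ± 3.26 at 60 h, 108 ± 3.71 at 120 h and 86.2 ± 2.55 at 168 h. Lars rose 2.15-fold and Wars 2.34-fold at 60 h against growth. Lars was back at its growth level at 168 h with overlapping intervals, while Wars remained 1.52-fold above it.

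Iars, the isoleucine enzyme (chromosome 13, 49777498 to 49829628), rose by the sum only. It had 109 ± 8.13 FPKM in growth, 296 ± 7.63 at 60 h, 112 ± 6.83 at 120 h and 90.9 ± 3.97 at 168 h, but its assembly was in 6, 7, 4 and 4 transcripts in time order, several of them pieces. Through the introns it had 44.1, 73.9, 56.8 and 43.3 FPKM in time order. The log2 ratio at 60 h against growth was 1.44 by the sum and 0.73 through the introns, and that at 120 h against 60 h was -1.39 by the sum and -0.37 through the introns. By each measure 60 h was the highest library.

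Below the threshold, 12 further synthetases were higher at 60 h than in growth with intervals apart. Eprs, which charges both glutamate and proline tRNAs, had 73.3 ± 1.10 FPKM at 60 h, against 38.4 ± 1.05 in growth (log2 ratio 0.91). Gars (chromosome 6, 54987952 to 55029621) had 314 ± 3.19 FPKM at 60 h, against 171 ± 3.16 in growth (0.87). Sars, the serine enzyme, had 381 ± 5.76 FPKM at 60 h, against 212 ± 5.34 in growth (0.84). Aars (chromosome 8, 113553722 to 113579630) had 302 ± 2.57 FPKM at 60 h, against 174 ± 2.59 in growth (0.79), although 22.4% of its sampled words also occur in Exosc6, an exosome gene on the same strand. These 4 genes lay just under 2-fold, and after median-ratio rescaling they passed, with log2 ratios of 1.14 (Eprs), 1.11 (Gars), 1.08 (Sars) and 1.03 (Aars), so that 7 of 19 rose on that scale. Rescaling, by factors of 1.09 in growth and 0.929 at 60 h, raised this ratio for all genes. The share of all genes that rose on that scale is not given here, and the 11.1% without rescaling does not apply to the 7. The remaining 8 were Nars (0.66), Cars (0.61), Dars (0.50), Tars (0.48), Yars (0.46), Mars (0.37), Farsb (0.36) and Rars (0.16), the enzymes of asparagine, cysteine, aspartate, threonine, tyrosine and methionine, the phenylalanine beta subunit and the arginine enzyme. Through the introns the ratio of Dars was 0.32. The ratios of Mars, here and at later times, carry the limit of its overlap with Ddit3.

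The 4 synthetases lower at 60 h than in growth were Farsa, Qars, Hars and Kars. Farsa (chromosome 8, 87380884 to 87393157) had 82.9 ± 5.12 FPKM in growth, 49.4 ± 1.52 at 60 h, 50.3 ± 2.18 at 120 h and 49.1 ± 1.57 at 168 h. It was low in all 3 low serum libraries, whose intervals overlapped, with a log2 ratio of -0.74 at 60 h against growth that did not reach 2-fold. Farsb, which encodes the other subunit of the same enzyme, had 39.6 ± 1.65 FPKM in growth, 51.1 ± 1.92 at 60 h, 48.7 ± 2.69 at 120 h and 35.7 ± 1.79 at 168 h. The subunits thus differed in direction at 60 h against growth, and after rescaling too, at -0.50 for Farsa and 0.59 for Farsb. Qars, the glutamine enzyme, had 91.9, 73.7, 90.0 and 88.6 FPKM in time order and was lowest at 60 h. Hars, the histidine enzyme, had 75.0, 62.6, 54.5 and 38.5 FPKM by the sum and 75.0, 45.2, 51.2 and 38.5 FPKM through the introns. Its log2 ratio through the introns was -0.72 at 60 h against growth and 0.17 at 120 h against 60 h, where the sum gave -0.20, so the direction of the later step depends on the measure. Kars, the lysine enzyme, had 149, 134, 152 and 114 FPKM. By the sum the ratios of Qars, Hars and Kars at 60 h against growth were -0.32, -0.26 and -0.15, and that of Kars turned to 0.08 after rescaling.

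Levels of the synthetases can be ordered per length, leaving out Iars, Hars and Dars, whose values at 60 h differ between the measures. At 60 h Sars (381 ± 5.76 FPKM) was the highest, and Gars (314 ± 3.19 FPKM) and Aars (302 ± 2.57 FPKM) came next with intervals apart. Farsa (49.4 ± 1.52) and Farsb (51.1 ± 1.92 FPKM) were the lowest of those ordered, with intervals not apart. Dars had 53.6 ± 2.58 FPKM by the sum, above both, and 47.3 ± 2.19 through the introns, below both. In growth the highest were again Sars (212 ± 5.34 FPKM), Aars (174 ± 2.59) and Gars (171 ± 3.16 FPKM), with Aars and Gars not apart.

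After 60 h most members were lower at each later time. At 120 h against 60 h 1 member rose (Phgdh) and 2 fell (Slc7a11 and Iars), where 12.3% and 3.77% of all genes rose and fell. By both measures 1 rose and 1 fell, against 2.7% and 2.17% of genes. Few passed the rule, but with intervals apart 28 members were lower at 120 h and 6 higher, where 19.5% of all genes were lower and 35.9% higher. The 6 that were higher were Phgdh, Kars, Mars, Nars, Qars and Sars. After rescaling Kars (-0.02) and Sars (-0.08) turned sign, and over the union of exons Mars (-0.13), Nars (-0.32) and Sars (-0.18) did. Nars, the asparagine enzyme, had 146 ± 9.45, 231 ± 8.44, 311 ± 14.9 and 123 ± 8.86 FPKM in time order, but 98.0 FPKM of the 120 h value was a separate piece of 449 bases at the 3′ end, and through the introns it had 213 FPKM at 120 h, against 231 at 60 h.

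At 168 h against 120 h 2 members rose (Ddit3 and Slc7a11) and 3 fell (Phgdh, Psph and Nars), where 4.08% and 10.1% of all genes rose and fell. By both measures 1 rose (Ddit3) and 2 fell (Phgdh and Psph), against 2.3% and 2.98% of genes. The median log2 ratio of the members was -0.39, beside -0.115 for all genes. With intervals apart 32 members were lower at 168 h and 2 higher, where 32.6% of all genes were lower and 20.5% higher. All 19 synthetases were lower at 168 h than at 120 h, 17 of them with intervals apart, and Qars and Farsa overlapped, with log2 ratios of -0.02 and -0.03 that became 0.14 and 0.12 after rescaling.

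**Figure D3:**
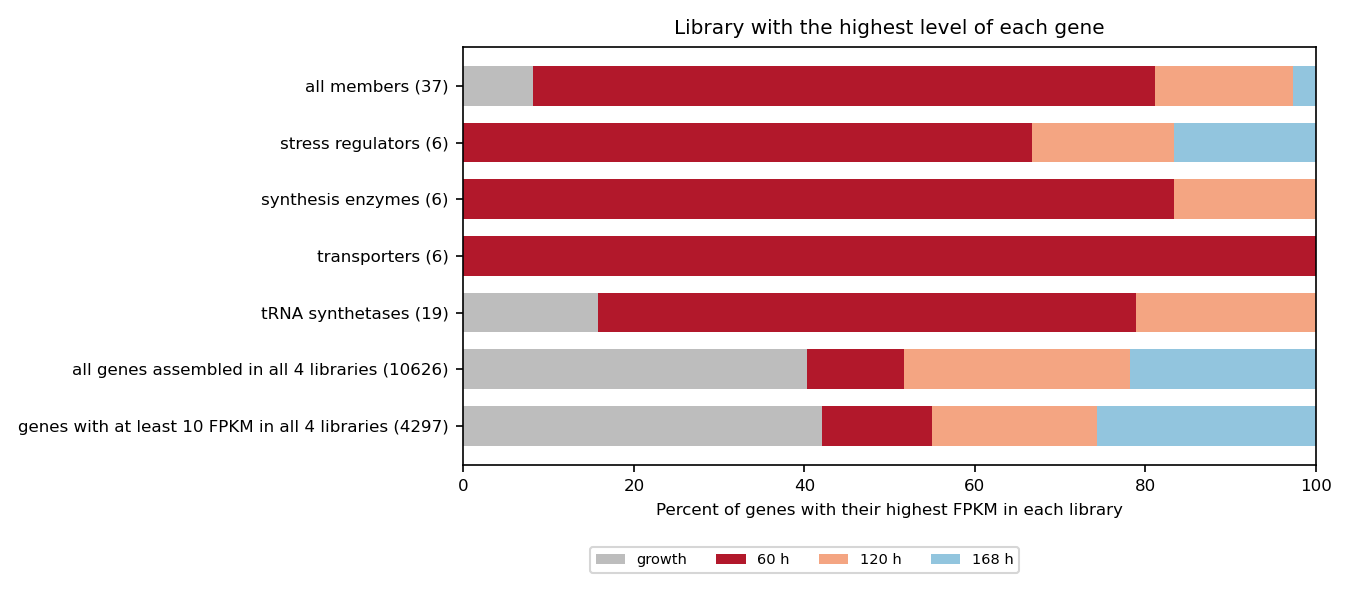
Share of genes (%) with their highest summed FPKM in growth, then at 60 h, 120 h and 168 h, for all members, for each role, and for all genes assembled in all 4 libraries, with the number of genes in brackets. The highest library was 60 h for 27 of the 37 members (73.0%), against 11.4% of 10626 genes.

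The 60 h library held the highest level of 27 of the 37 members (73.0%), against 11.4% of the 10626 genes assembled in all 4 libraries and 12.9% of the 4297 genes with at least 10 FPKM in each. Through the introns the shares were 75.7% of members and 16.0% of genes, and after rescaling 81.1% and 18.2%. By role 60 h was highest for 6 of 6 transporters, 5 of 6 synthesis enzymes, 4 of 6 regulators and 12 of 19 synthetases. A pattern above growth at 60 h and then lower at each later time was shown by 26 members (70.3%), against 8.0% of genes. The members that peaked elsewhere were Atf4, Phgdh, Kars, Mars, Nars and Sars at 120 h, Ddit3 at 168 h, and Hars, Qars and Farsa in growth. Over the union of exons 31 members (83.8%) were highest at 60 h, against 20.1% of genes, and Atf4, Mars, Nars and Sars were then among them. That measure depends on the length assembled, and 60 h was the library with the most fragments. What this adds to the shares was not tested. The intervals of Kars at 120 h and in growth overlapped. For Atf4 the intervals at 60 h and 120 h overlapped.

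The level at 168 h relative to growth differed by role. At 168 h against growth 7 members rose and 0 fell, where 15.6% of all genes rose and 18.6% fell, and by both measures 6 rose and 0 fell, against 12.7% and 14.9% of genes. The counts of rises over all members thus lay near the shares of all genes. The 7 that rose by the sum were Atf3, Ddit3, Trib3 and Chac1 of the regulators and Slc7a5, Slc3a2 and Slc7a11 of the transporters. The median log2 ratio at 168 h against growth was 1.85 for the regulators, 0.90 for the transporters, -0.28 for the synthesis enzymes and -0.23 for the synthetases, beside -0.111 for all genes. With intervals apart, 18 members were higher at 168 h than in growth and 15 lower, where 32.6% of all genes were higher and 39.9% lower. Among the 19 synthetases 6 were higher and 11 lower. The 6 were Sars (log2 ratio 0.65), Wars (0.60), Eprs (0.19), Mars (0.15), Aars (0.12) and Gars (0.09). Of the 11 that were lower, Farsb turned sign after rescaling, with a log2 ratio of 0.05 in place of -0.14. Hars had the lowest ratio, with 38.5 ± 1.42 FPKM at 168 h, against 75.0 ± 2.32 in growth (-0.95). The difference between roles has no replicate check and was not tested.

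**Figure D4:**
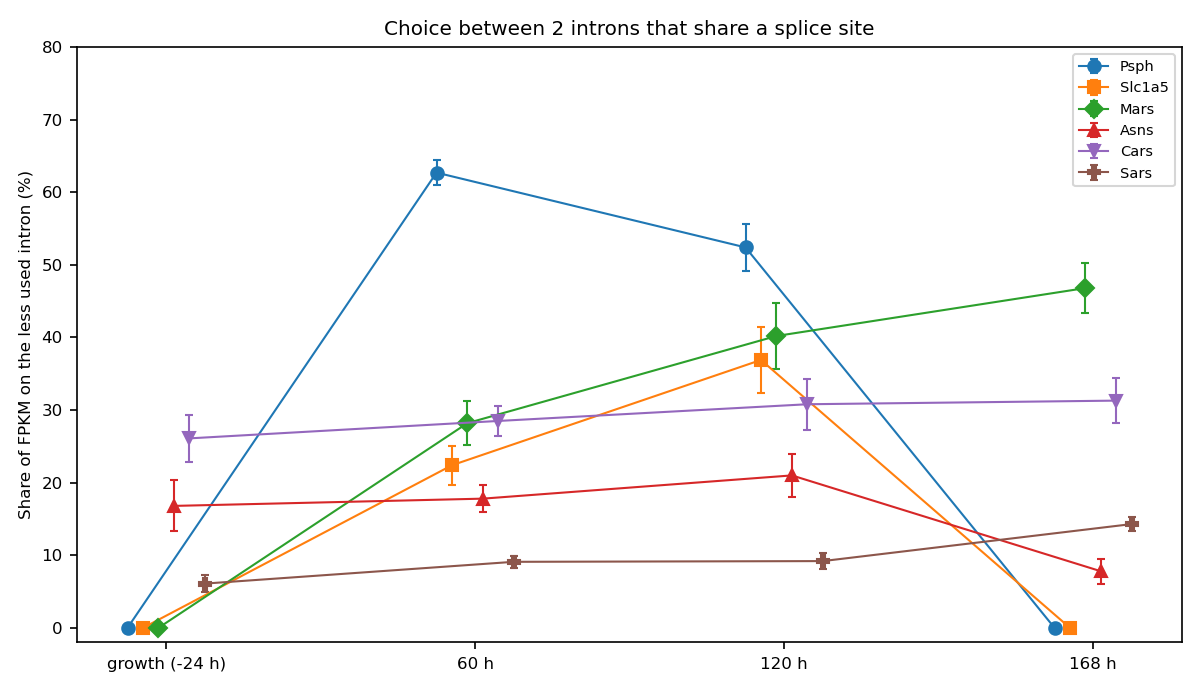
Share of FPKM (%) on the less used of 2 introns that share a splice site in 6 members, in growth (-24 h) and at 60 h, 120 h and 168 h, with bars to the confidence limits and points shifted sideways for legibility. Psph and Slc1a5 have the second intron at 60 h and 120 h only, and the share in Mars is 46.8% at 168 h and 0 in growth.

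The assembled forms of Mars, Sars, Asns and Cars were also compared between the libraries. In Mars an intron near the 3′ end (chromosome 10, 126733690 to 126733928) was the one assembled form in growth. In low serum its place was partly taken by a pair of shorter introns, of which the one from 126733690 to 126733772 held 28.2 ± 3.0% of the FPKM at 60 h, 40.2 ± 4.5% at 120 h and 46.8 ± 3.5% at 168 h. Ddit3 lies on the opposite strand, and its assembled transcript covered this stretch at 60 h (to 126734070) and 120 h (to 126734078) and ended before it in growth (126733501) and at 168 h (126733500). Fragments of the 2 genes cannot be told apart there. In Sars a further exon, which replaces the intron from 108230308 to 108231091 on chromosome 3, was included at 6.1 ± 1.2% in growth, 9.1 ± 0.8% at 60 h, 9.2 ± 1.1% at 120 h and 14.3 ± 1.0% at 168 h. In Asns a form that skips an exon near the 5′ end held 16.8 ± 3.5% in growth, 17.8 ± 1.9% at 60 h, 21 ± 3.0% at 120 h and 7.8 ± 1.7% at 168 h. In Cars the share of a form with an added exon was 31.3 ± 3.1% at 168 h, against 26.1 ± 3.2% in growth, and the intervals overlapped. A form that is not assembled in a library may still be present below what the assembly needs.

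Other genes linked to the same response were counted in the same way. Of 18 other genes known as ATF4 targets or partners, 14 rose and 0 fell at 60 h against growth, with a median log2 ratio of 1.28. Of all genes 11.1% rose and 15.4% fell. By both measures 13 rose and 0 fell, against 8.41% and 9.15% of genes, and Vegfa rose by the sum only. Fgf21, a hormone that muscle releases under stress, had 283 ± 5.07 FPKM at 60 h, against 1.93 ± 1.04 in growth. Gpt2, the mitochondrial alanine aminotransferase, had 113 ± 4.11 FPKM at 60 h, against 21.5 ± 0.903 in growth. Herpud1, a factor of protein disposal at the endoplasmic reticulum, had 184 ± 4.70 FPKM at 60 h, against 36.5 ± 3.28 in growth. Cth, which makes cysteine, had 47.0 ± 1.54 FPKM at 60 h, against 11.2 ± 1.02 in growth.

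Genes upstream of ATF4 and of a related pathway are set beside the same shares of all genes, 11.1% risen and 15.4% fallen. Of 14 genes of the eIF2 kinases, eIF2 with its exchange factor, and the eIF2 phosphatase subunits, 1 rose and 0 fell at 60 h against growth, with a median log2 ratio of -0.27, a count near the background. The 1 was Ppp1r15a, the phosphatase subunit that ends the response, with 112 ± 2.00 FPKM at 60 h, against 14.1 ± 0.933 in growth. Of 12 genes of the unfolded protein response, which shares the eIF2 branch but is otherwise run by other factors, 1 rose and 3 fell, with a median of -0.45. Atf6 rose, with 31.1 ± 2.91 FPKM at 60 h, against 11.04 ± 1.33 in growth. Manf fell, with 101 ± 3.14 FPKM at 60 h, against 248 ± 6.37 in growth, as did Creld2, with 34.0 ± 1.43 against 79.1 ± 2.81, and Sdf2l1, with 9.80 ± 0.887 against 24.3 ± 1.73. Kinase activity and phosphorylation of eIF2 were not measured.

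Relatives of the synthesis enzymes and the synthetases were counted as well, beside the 11.1% of all genes that rose and 15.4% that fell. Of 16 mitochondrial tRNA synthetases 1 rose (Pars2) and 1 fell (Iars2) at 60 h against growth, counts no larger than those shares would give, with a median log2 ratio of -0.13. Iars2 had 9.18 ± 0.353 FPKM at 60 h, against 30.7 ± 2.50 in growth. Of 5 further parts and relatives of the cytoplasmic synthetases 0 rose and 1 fell. That was Vars, the valine enzyme, with 104 ± 2.86 FPKM at 60 h, against 242 ± 8.23 in growth, and it did not fall through the introns. Of 9 other folate and serine genes 1 rose (Srr) and 3 fell. They were Tyms, the thymidylate synthase of DNA synthesis, with 13.9 ± 1.02 FPKM at 60 h, against 58.5 ± 2.74 in growth, Mthfd1, with 22.2 ± 0.753 FPKM at 60 h, against 59.2 ± 2.32 in growth, and Shmt1, with 3.02 ± 0.254 FPKM at 60 h, against 11.6 ± 0.527 in growth.

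**Figure D5:**
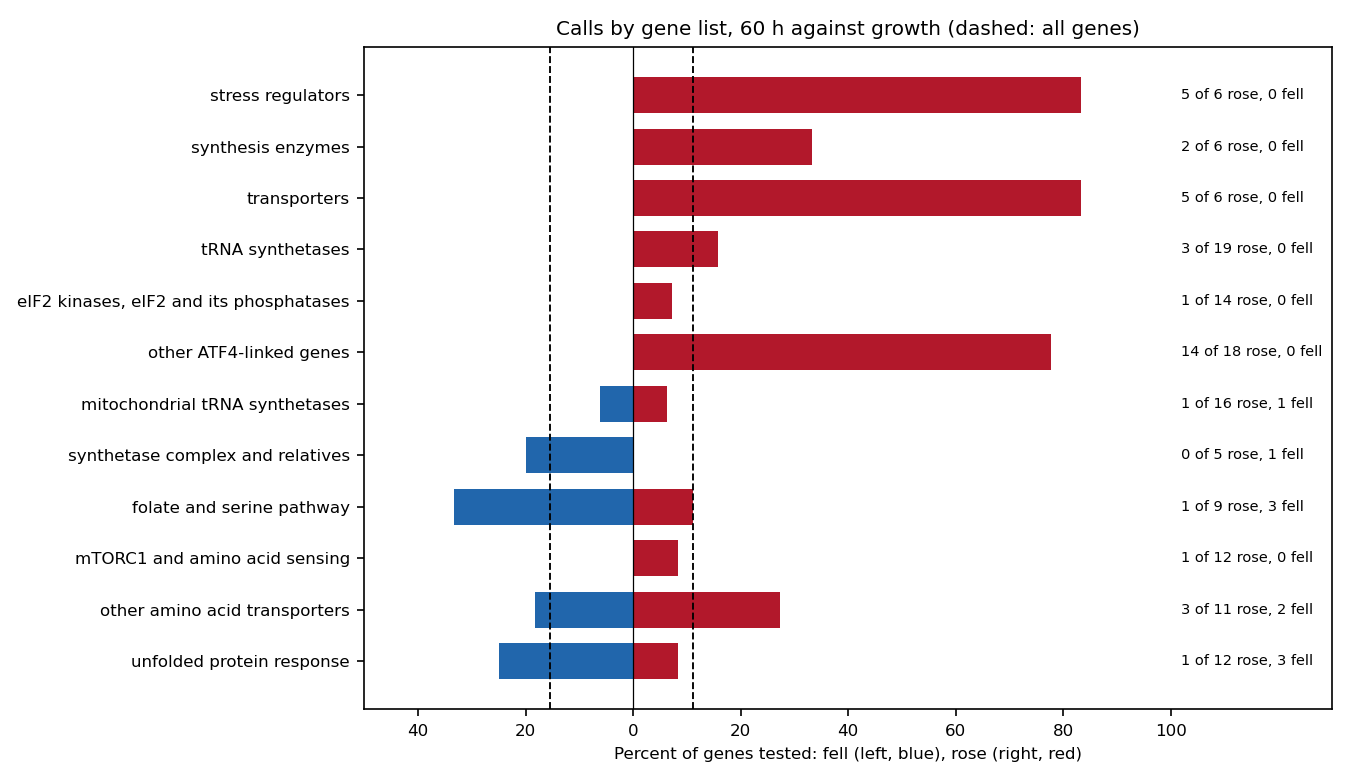
Percent of the tested genes of each list that fell (left, blue) or rose (right, red) by the size rule at 60 h against growth, with dashed lines at the 15.4% and 11.1% of all genes that did. The regulators, the transporters and the other ATF4-linked genes have 5 of 6, 5 of 6 and 14 of 18 genes risen.

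Of 11 other amino acid transporters 3 rose (Slc6a9, Slc43a2 and Slc7a7) and 2 fell (Slc1a3 and Slc7a2) at 60 h against growth. Of all genes 11.1% rose and 15.4% fell, so the count of falls lay near the background. By both measures 3 rose and 0 fell, against 8.41% and 9.15% of genes. Slc6a9, a glycine carrier, had 69.5 ± 1.26 FPKM at 60 h, against 8.43 ± 0.625 in growth, and Slc1a3, a glutamate carrier, had 0.430 ± 0.430 FPKM at 60 h, against 10.2 ± 1.85 in growth. Of 12 genes of mTORC1 and amino acid sensing 1 rose (Rps6kb1) and 0 fell, with a median log2 ratio of 0.12, and none rose by both measures. These counts are no larger than the shares of all genes would give. Of the members that rose at 60 h against growth, 7 of the 11 with a matched promoter held the core TGATGNAA, against 4 of the 18 that did not pass the rule, a description with no test. The 7 include Iars, which rose by the sum only. After rescaling Aars and Gars, of the 4, also passed, as did Eprs, Sars and Mthfd2, which lack the core, so the split depends on the measure.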

How the data were processed

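Polyadenylated RNA of C2C12 cells was sequenced from both ends of each fragment, with no marking of strand described per the labels' protocols, in 1 library at each of 4 times. For every transcript assembled in a library the authors deposited an RPKM with confidence limits. Lines of the files name Cufflinks as their source, and per the submitters' processing notes the tools include Cufflinks 0.8.0 and TopHat 1.0.13. RPKM is called FPKM here because the values count fragments. The deposited score column was not used. Coordinates are as deposited, on a genome build not given in the sources used here.

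Limits of genes with 1 transcript lie 2 square roots of a fragment count from the value. This gave 28513976, 48228887, 24488681 and 43845262 fragments for growth, 60 h, 120 h and 168 h, and 90.4% to 90.9% of low transcripts had whole counts within 0.01.

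Genes were named by matching runs of intron and exon lengths to GENCODE M21, without converting coordinates. This named 121824 of 137519 introns, and 6369 more between named neighbours, in 12612 genes. The naming and the size rule were tested on simulated data. A gene's value was the sum of FPKM over its transcripts, with limits added in quadrature. Genes tested had a transcript in at least 1 of the 2 libraries. Copies were sought as words of 50 bases found in another annotated gene.

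Members called by both measures in any comparison are given in every library. Of other lists, those named have the largest ratios at 60 h against growth and at least 10 FPKM, and Pars2, Srr, Slc43a2, Slc7a7 and Slc7a2 were named after their values were seen, as were the changes of form. Of the folate and serine list 1 gene is not reported here. The members, lists and rules were chosen with earlier results of these data known. Alternatives were a pseudocount of 0.1 FPKM, no minimum, a minimum of 5 FPKM, median-ratio rescaling, multi-exon transcripts alone, the introns and, added after seeing the data, the union of exons. Python 3.11.15 and numpy 2.4.6 were used.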

Additional observations from a re-analysis of the deposited data

How the results depend on the processing

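With 1 library per time no result has a replicate check, and no library could be left out. No paired analysis was possible because each time has a single library. Of 168 alternative counts of calls 155 stayed within 1.5 times the reported count, and of 1036 alternative ratios of members 1004 kept direction and call, 11 gained a call, 21 lost one and 0 called ratios changed sign. At 120 h against 60 h 0 members rose with multi-exon transcripts alone or over the union of exons, and 1 fell through the introns, with a minimum of 5 FPKM or over the union. At 168 h against 120 h 1 member rose through the introns or with a minimum of 5 FPKM, and over the union 0 rose and 1 fell. At 168 h against growth 1 member fell over the union of exons, a tRNA synthetase (Hars, log2 ratio -1.10). At 60 h against growth 1 synthesis enzyme rose over the union, and 7 tRNA synthetases rose after median-ratio rescaling. The shares of all genes under these alternatives are not given here. The causes were not tested. Slc7a11 lost each of its calls with a minimum of 5 FPKM, and depth limits it most.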
